A study of Mus musculus with 9 samples.

Results

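The genes encoding the proteins of the cytosolic ribosome were examined in dendritic cells (DCs) that lack Gαs. They were the rows of the deposited expression table whose symbol begins with *Rpl* or *Rps* followed by a number, with *Rplp0*, *Rplp1*, *Rplp2* and *Rpsa*, and without pseudogene symbols ending in -ps. This rule took 89 of the 30588 named genes of the table, 49 of the large subunit, 3 of its stalk and 37 of the small subunit. It used no measured value. *Rps4l*, *Rps12l1*, *Rps3a2* and *Rps3a3*, counted here with the small subunit, are annotated as pseudogenes in GENCODE although their symbols do not end in -ps.

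DCs were grown from mouse bone marrow with GM-CSF for 6 days and isolated with magnetic beads as CD11c+ cells, and their polyadenylated RNA was sequenced as stranded libraries. The Δ*Gnas* group (labelled GNAS_KO) held 4 libraries, replicates 3, 4, 6 and 7, from mice with CD11c-Cre and a floxed *Gnas* gene, which encodes Gαs, the G protein that activates adenylyl cyclase. The WT group held 5 libraries, replicates 3 to 7. All mice were labelled C57BL/6J, and replicates 3 and 4 of each genotype were labelled male and the others female. CD11c drives the Cre, so that cells delete *Gnas* only where this promoter is active, and some transcript remained. *Gnas* was at 48.0, 63.6, 53.4 and 58.1 TPM (transcript level corrected for length and scaled to the same total in each library) in Δ*Gnas* DCs, against 532, 415, 404, 407 and 432 TPM in WT DCs, so every library carried its labelled genotype.

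The cytosolic ribosome joins a small subunit, which decodes mRNA, to a large subunit, which forms peptide bonds. Each ribosomal protein is needed in a nearly fixed amount, its mRNA is short and abundant, and many such mRNAs begin with a pyrimidine tract through which mTORC1 controls their translation. Ribosomal protein mRNAs have also been copied back into the mouse genome many times, and most of these retrocopies are processed pseudogenes whose sequence stays close to that of the parent gene. In GM-CSF cultures, DC precursors divide before they differentiate, and dividing cells need new ribosomes.

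The libraries held 34215663 to 49368161 estimated counts. WT replicate 3 stood apart, with 1.39% of its TPM in mitochondrially encoded genes against 5.86 to 8.55% in the other 8 libraries. WT replicate 7, labelled female, had 21.3 TPM of the Y-linked gene *Ddx3y*, so its label and its RNA disagreed. The 7 listed DC markers summed to 22418 to 28685 TPM in Δ*Gnas* DCs and 15823 to 30816 TPM in WT DCs, with 3 of them higher and 1 lower in Δ*Gnas* DCs. Of 8 tested macrophage markers 6 were lower in Δ*Gnas* DCs and 0 were higher, and their summed level was 1294 to 2014 TPM in Δ*Gnas* DCs and 3367 to 8104 TPM in WT DCs, with none of them at 0 in all libraries. By edgeR's quasi-likelihood test (adjusted p under 0.05) 2 of 5 eosinophil and 2 of 3 T cell markers were higher and 1 of 3 mast cell markers was lower, while 0 of 3 monocyte, 5 neutrophil and 1 B cell markers were called in either direction (1 neutrophil marker was higher at an unadjusted p under 0.05, and DESeq2, the exact test and limma-voom called 0). Other markers of these lists went the other way: 1 T cell marker was lower and 1 mast cell marker higher at an unadjusted p under 0.05. DESeq2 and the exact test also called these 2, and limma-voom did not. The eosinophil markers summed to 89.8 to 255 TPM in Δ*Gnas* DCs and 67.9 to 537 TPM in WT DCs. T cell markers summed to 3.88 to 10.7 TPM in Δ*Gnas* DCs and 1.93 to 4.95 TPM in WT DCs. The neutrophil markers, though not called, summed to 135 to 921 TPM in Δ*Gnas* DCs and 84.9 to 272 TPM in WT DCs. The median log2 fold change of the 5 tested was 1.22. The part of these differences in the results below was not tested. In such bulk samples, fewer cells of a type and less RNA per cell cannot be told apart.

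Ribosomal protein mRNAs made up a large share of the transcriptome in both genotypes. The 89 genes together held 9.98, 11.2, 9.87 and 8.26% of all TPM in Δ*Gnas* replicates 3, 4, 6 and 7, against 12.3, 10.2, 9.26, 9.87 and 12.3% in WT replicates 3 to 7. The mean was 9.83 ± 1.21% in Δ*Gnas* DCs (SD, n = 4) and 10.8 ± 1.43% in WT DCs (SD, n = 5). The groups overlapped, and the difference of -0.951 percentage points was smaller than the SD of either group. Large subunit and stalk genes held 5.20 ± 0.667% in Δ*Gnas* DCs and 5.75 ± 0.793% in WT DCs, and small subunit genes 4.63 ± 0.548% in Δ*Gnas* DCs and 5.04 ± 0.639% in WT DCs.

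By their own rows, without the copies described below, single genes had very unequal levels, from 0 TPM up to the most abundant rows of the table. The median of the 89 mean levels was 1148.5 TPM, against 13.7 TPM over all genes tested, and 33 of the 100 most abundant rows of the table were ribosomal protein genes. The 6 most abundant were *Rps29* (4051 TPM), a zinc-binding protein of the small subunit, *Rps24* (3128 TPM), *Rpl26* (2730 TPM), *Rplp1* (2680 TPM), which forms the acidic stalk with *Rplp2*, *Rps9* (2460 TPM) and *Rpl41* (2402 TPM), the smallest ribosomal protein. Between neighbours in this order the levels were often closer than the spread between libraries: *Rpl26* averaged 2568 ± 308 TPM in Δ*Gnas* DCs and 2860 ± 384 TPM in WT DCs, and *Rplp1* 2839 ± 348 TPM in Δ*Gnas* DCs and 2552 ± 265 TPM in WT DCs (SD, n = 4 and 5). *Rps29* was at 3618 to 4124 TPM in Δ*Gnas* DCs and 3883 to 5396 TPM in WT DCs, and overlapped with *Rps24* in Δ*Gnas* DCs only, where *Rps24* reached 3813 TPM, against 3749 TPM in WT DCs.

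The 13 members with under 100 TPM included paralogs expressed mainly in other tissues, such as *Rpl3l*, known from striated muscle (2.50 TPM), *Rpl39l*, known from testis (1.445 TPM), and *Rpl10l*, known from testis and listed at 0 TPM in all libraries. They also included genes whose proteins are core parts of the ribosome. *Rpl5*, which carries the 5S ribosomal RNA into the large subunit together with *Rpl11*, was at 13.3 to 17.01 TPM in Δ*Gnas* DCs and 16.8 to 23.3 TPM in WT DCs. *Rpl12*, a protein at the base of the stalk, averaged 41.1 TPM over all libraries, *Rpl27* 35.0 TPM, and *Rps27*, a small subunit protein with a zinc finger, was listed at 0 TPM in all 9.

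Near-identical copies of these genes were also rows of the table. A search of the GENCODE transcripts (GRCm38) with the members' own transcripts found 465 further genes of the table that matched a member at 95% identity or more over at least 50% of the copy, of which 454 are annotated as pseudogenes, and 77 of the 89 members had at least one. Only 36 of the copies averaged over 5 TPM. The transcripts were assigned by a method that shares a read among all the transcripts it matches, so where a gene and its copy do not differ, the sequence cannot say which of them a read came from. The authors assigned reads to an Ensembl transcript set of another release than the set searched here. Whether these sets differ at the genes and copies was not tested.

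*Gm15500*, a processed copy on chromosome 7 that was identical to *Rpl5* over 1018 bases, was at 1063 to 1534 TPM in Δ*Gnas* DCs and 1242 to 1743 TPM in WT DCs, and held 98.7% of the joint level of *Rpl5* and its copies. *Gm10275* on chromosome 10, identical to *Rpl12* over 634 bases, was at 1102 to 1722 TPM in Δ*Gnas* DCs and 969 to 1558 TPM in WT DCs. *Rps27rt* on chromosome 9, identical to *Rps27* over 341 bases, was at 2740 to 3443 TPM in Δ*Gnas* DCs and 3353 to 5275 TPM in WT DCs. In these 3 families and that of *Rpl27*, over 90% of the joint level lay in the copies.

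When each gene was summed with its copies, the levels came closer together. For the 77 families left without the paralogs, the sums had a median of 1509.5 TPM and reached 4051 TPM for *Rps29*, and 71 of the 77 lay within 2-fold of that median. By their own rows, 64 of the 77 lay within 2-fold of the median of those rows, 1293 TPM. In 50 families the copies held under 1% of the sum, and in 17 they held over 20%. The plot of levels by rank shows both views.

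**Figure D1:**
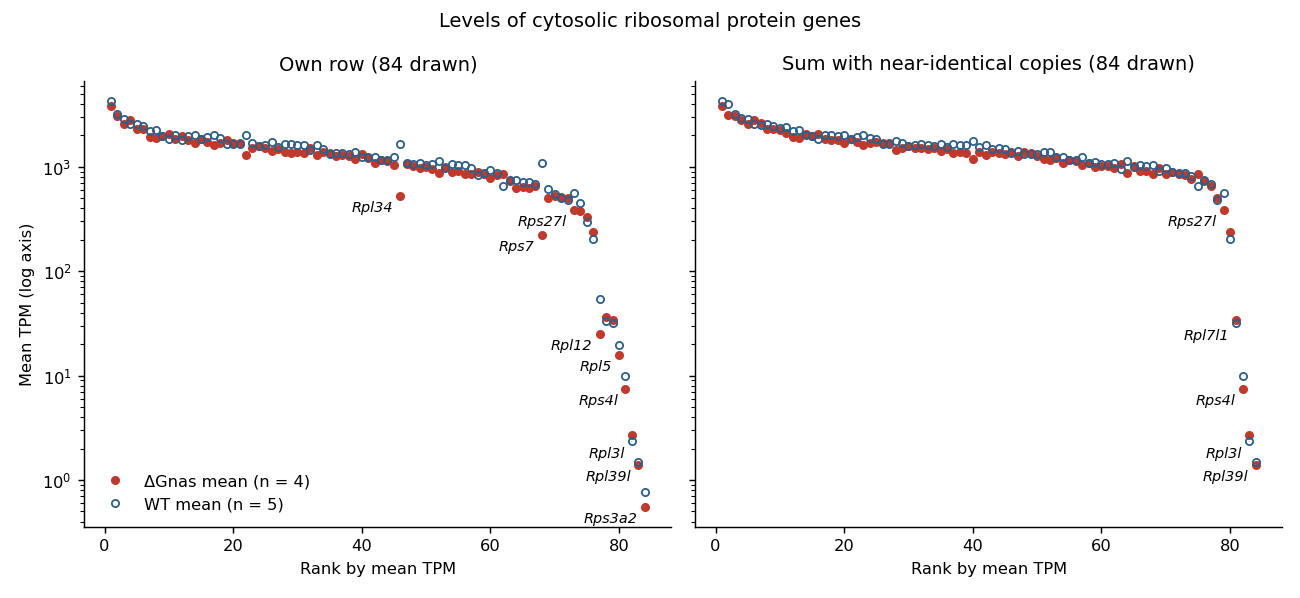
Mean TPM on a log axis against rank, for the genes' own rows (left) and for each gene summed with its near-identical copies (right); filled points are Δ*Gnas* means (n = 4) and open points WT means (n = 5), and entries at or under 0.5 TPM in a genotype are not drawn. *Rpl12* and *Rpl5* lie among the lowest rows on the left and join the main group on the right. There *Rpl7l1*, *Rps4l*, *Rpl3l* and *Rpl39l* remain low, all listed here as paralogs, though *Rps4l* is annotated as a pseudogene.

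The 2 genotypes were compared gene by gene, to ask which ribosomal protein mRNAs differ in DCs with a lasting loss of Gαs. By edgeR's quasi-likelihood test with Benjamini-Hochberg adjustment over 11862 genes at 0.05, 2 of the 83 members that passed the filter of over 1 CPM (counts scaled to the same library total, here after TMM normalization) in at least 3 libraries were lower in Δ*Gnas* DCs, *Rps7* and *Rpl12*, and 0 were higher. That was 2.41% of the tested members called lower, against 4.15% of all genes called lower, 5.41% called higher and 9.56% called in either direction. At an unadjusted p under 0.05, 6 members were lower and 0 were higher. DESeq2 and the exact test of edgeR each called 5 lower and 0 higher, and limma-voom 4 lower and 0 higher. The shares above are those of the quasi-likelihood test, and DESeq2 called more of all genes (1769, against 1134). Here and below, counts at an unadjusted p or by other tools have no share of all genes beside them. The 6 members left out by the filter were *Rpl10l*, *Rps12l1*, *Rps12l2*, *Rps27*, *Rps3a2* and *Rps3a3*.

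Most members differed little. The log2 fold change (Δ*Gnas* over WT) was smaller than 0.5 in size for 78 of the 83, and its median was -0.13, against -0.0043 over all genes tested. It was negative for 63 of the 83 members (75.9%), against 50.6% of all genes, and the highest was 0.37 (SE 0.23) for *Rpl3*, which lies at the peptidyl transferase centre. The median was -0.12 for 48 tested genes of the large subunit, -0.13 for 32 of the small subunit and -0.24 for the 3 stalk genes. This small shift rested on 1 library: without WT replicate 7 the median was 0.0071.

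The members' median level differed more between libraries of a genotype than between the genotypes. As the median over the 83 members, log2 CPM stood at -0.19, 0.15, -0.08 and -0.28 relative to the WT mean in Δ*Gnas* replicates 3, 4, 6 and 7. In WT replicates 3 to 7 it stood at -0.06, -0.07, -0.23, -0.09 and 0.47. TMM normalization itself brings the median over all genes tested close to 0, and that median was between -0.02 and 0.02. In WT replicate 7, 81 of the 83 members lay above the WT mean and 75 were at their highest among WT libraries, and in Δ*Gnas* replicate 4, 75 were at their highest among Δ*Gnas* libraries. WT replicate 5 and Δ*Gnas* replicate 7 held the lowest value of their genotype for 44 and 62 members. These CPM depend on the TMM factors, which were lowest in WT replicate 7 (0.825) and highest in WT replicate 3 (1.21). WT replicate 7 is the library whose Y-linked RNA goes against its label, and whether that mismatch bears on these levels was not tested.

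**Figure D2:**
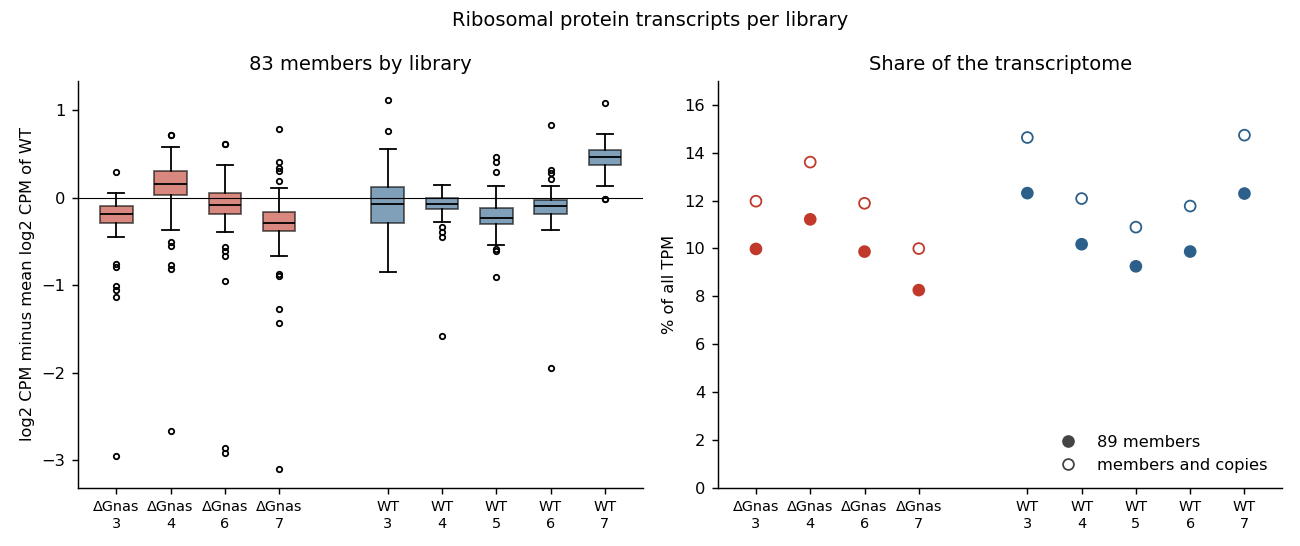
Left, log2 CPM of the 83 tested members minus the mean log2 CPM of the WT libraries, as a box per library (line, median; box, quartiles; points, values beyond the whiskers); right, the share of all TPM in the 89 members (filled) and with their copies (open). WT replicate 7 sits highest on the left, with a median of 0.47, and the points of the Δ*Gnas* libraries below -2 are *Rps7* and *Rpl34*.

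*Rps7*, a small subunit protein that in human cells also binds the p53 regulator MDM2, showed the largest difference. It was at 151, 162, 144 and 430 TPM in Δ*Gnas* DCs, against 1403, 1037, 881, 1008 and 1147 TPM in WT DCs. All Δ*Gnas* libraries lay below all WT libraries, and replicate 7 was the highest of the Δ*Gnas* libraries. The log2 fold change was -2.28 (SE 0.37; edgeR adjusted p = 0.0061).

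Its copy *Gm6472* on the X chromosome differed the other way. *Gm6472* was at 1293, 1497, 1194 and 633 TPM in Δ*Gnas* DCs, against 132, 220, 251, 261 and 439 TPM in WT DCs, and its log2 fold change was 2.07 (SE 0.41; edgeR adjusted p = 0.013). The library with the most *Rps7* among Δ*Gnas* DCs, replicate 7, had the least *Gm6472*. All copies of *Rps7* together, chiefly *Gm6472*, held 89.5, 90.3, 89.3 and 59.6% of the joint level in Δ*Gnas* DCs. In WT DCs they held 8.71, 17.6, 22.3, 20.7 and 27.8%.

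The sum of *Rps7* and its copies did not differ beyond the spread between libraries. It was 1377 ± 247 TPM in Δ*Gnas* DCs (SD, n = 4) and 1358 ± 196 TPM in WT DCs (SD, n = 5), and by edgeR their log2 ratio was 0.01 (SE 0.19; adjusted p = 0.98). Over all settings tried, including this one, the adjusted p of *Rps7* ran from 2.9e-10 to 0.98, and this sum was the only setting of 24 in which *Rps7* was not called.

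*Rps7* (chr12:28630854-28635953, minus strand) and *Gm6472* (chrX:152909505-152910155, minus strand) matched over 651 bases with 4 differences, 3 of them within the 585 coding bases. The 2 stretches below hold those 3 positions in capitals, counted from 1 at the A of the start codon, with the base of *Rps7* first: T26G and G48A in coding bases 1 to 56, and G123T in coding bases 93 to 153. Within the matched bases, reads that cross no difference fit both transcripts equally.
Rps7, bases 1 to 56: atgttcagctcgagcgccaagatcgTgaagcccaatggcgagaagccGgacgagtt
Gm6472, bases 1 to 56: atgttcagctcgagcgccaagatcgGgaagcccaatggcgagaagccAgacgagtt
Rps7, bases 93 to 153: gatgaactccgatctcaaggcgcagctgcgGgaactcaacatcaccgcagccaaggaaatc
Gm6472, bases 93 to 153: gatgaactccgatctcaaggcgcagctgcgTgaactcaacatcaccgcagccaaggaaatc

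*Rpl12* was the other gene called. It was at 27.4, 28.3, 26.2 and 17.97 TPM in Δ*Gnas* DCs, against 91.6, 47.3, 38.4, 39.4 and 53.6 TPM in WT DCs, so the groups did not overlap and WT replicate 3 stood highest. The log2 fold change was -1.09 (SE 0.23; edgeR adjusted p = 0.018), and without Δ*Gnas* replicate 7 the adjusted p was 0.062. These rows held few of the reads: with its copies the family averaged 1373 ± 282 TPM in Δ*Gnas* DCs and 1333 ± 251 TPM in WT DCs, a log2 fold change of 0.05 (SE 0.21; edgeR adjusted p = 0.92, within a range of 0.00012 to 0.92 over all settings).

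A further pair of genes, *Rpl34* and *Rpl35a*, did not pass the threshold but had no overlap between genotypes. In all, 5 of the 83 members (6.02%) had every Δ*Gnas* library below every WT library in CPM, against 5.37% of all genes tested. They were *Rps7*, *Rpl12*, *Rpl34*, *Rpl35a* and the paralog *Rps27l*. The reverse held for 0 members, and the share of all genes with that reverse order is not given here.

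*Rpl34*, a protein of the large subunit, was at 805, 881, 224 and 182 TPM in Δ*Gnas* DCs, against 1720, 1672, 1328, 1504 and 2019 TPM in WT DCs (log2 fold change -1.68, SE 0.47; edgeR adjusted p = 0.053). The Δ*Gnas* libraries fell into 2 levels, with replicates 3 and 4, labelled male, above replicates 6 and 7, labelled female. Its copy *Rpl34-ps1* was at 590, 699, 1212 and 1077 TPM in Δ*Gnas* DCs, against 69.5, 0, 0.278, 0 and 1.11 TPM in WT DCs, where WT replicate 3 was the only library above 1.11 TPM. The copies held 42.3, 44.3, 84.4 and 85.5% of the joint level in Δ*Gnas* DCs, against 3.88% in WT replicate 3 and at most 0.0950% in the other WT libraries.

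The sum of *Rpl34* and its copies was 1419 ± 132 TPM in Δ*Gnas* DCs and 1663 ± 265 TPM in WT DCs, a log2 fold change of -0.24 (SE 0.19; edgeR adjusted p = 0.49). For the row of *Rpl34* alone, the calls were unsteady: of 24 settings 9 called it lower, among them DESeq2 (adjusted p = 0.00081), the fits that left out Δ*Gnas* replicate 3 (0.044) or Δ*Gnas* replicate 4 (0.040), and labelled sex as a covariate (0.029), and the range over all settings was 0.00081 to 0.49.

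*Rpl34* (chr3:130726831-130730398, minus strand) and *Rpl34-ps1* (chr6:71124610-71124963, plus strand) differed at 2 of 354 coding bases, T132C and C318G, with the base of *Rpl34* first. Both are shown in capitals within short stretches of the coding sequence, and the shared sequence runs on beyond each stretch.
Rpl34, bases 102 to 162: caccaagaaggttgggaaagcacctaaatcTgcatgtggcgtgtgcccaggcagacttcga
Rpl34-ps1, bases 102 to 162: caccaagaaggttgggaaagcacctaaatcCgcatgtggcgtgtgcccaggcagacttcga
Rpl34, bases 288 to 348: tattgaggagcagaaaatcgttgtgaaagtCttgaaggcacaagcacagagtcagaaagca
Rpl34-ps1, bases 288 to 348: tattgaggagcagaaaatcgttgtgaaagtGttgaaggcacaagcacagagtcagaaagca

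*Rpl35a*, a large subunit protein that is mutated in some patients with Diamond-Blackfan anaemia, was at 1280, 1512, 1304 and 1044 TPM in Δ*Gnas* DCs, against 2171, 1982, 1641, 1851 and 2391 TPM in WT DCs (log2 fold change -0.66, SE 0.20; edgeR adjusted p = 0.065). *Gm10243* and 4 named pseudogenes, *Rpl35a-ps2*, *-ps3*, *-ps4* and *-ps6*, had the same value in each library, 162, 183, 153 and 125 TPM in Δ*Gnas* DCs, against 9.17, 0.164, 0.442, 0.210 and 0.190 TPM in WT DCs. The copies held 36.9 to 38.8% of the joint level in Δ*Gnas* DCs and 0.0413 to 2.08% in WT DCs. The sum was 2065 ± 309 TPM in Δ*Gnas* DCs and 2018 ± 295 TPM in WT DCs, a log2 fold change of 0.02 (SE 0.19; edgeR adjusted p = 0.96, within a range of 0.0069 to 0.96 over all settings).

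A single coding base, G156A with the base of *Rpl35a* first, separates *Rpl35a* (chr16:33056453-33060189, plus strand) from *Gm10243* (chr6:48523518-48523850, plus strand) over 333 bases.
Rpl35a, bases 126 to 186: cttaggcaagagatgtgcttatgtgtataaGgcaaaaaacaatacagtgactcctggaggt
Gm10243, bases 126 to 186: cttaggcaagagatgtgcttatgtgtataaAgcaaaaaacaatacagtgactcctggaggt

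Copies also differed between libraries in families whose own row was not called, some higher and some lower in Δ*Gnas* DCs. *Rplp0*, the core of the stalk, was at 1462, 1558, 1449 and 1076 TPM in Δ*Gnas* DCs, against 1998, 1527, 1436, 1582 and 1693 TPM in WT DCs (log2 fold change -0.25, SE 0.16; edgeR adjusted p = 0.38). Its copy *Gm8730* on chromosome 8, with 12 differences in 954 bases, was at 135, 166, 66.5 and 112 TPM in Δ*Gnas* DCs and at 4.83, 0.0716, 0.0369, 0.223 and 0.0754 TPM in WT DCs. All Δ*Gnas* libraries were thus above all WT libraries for the copy, and the genotypes overlapped for the gene.

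*Rps2*, a small subunit protein at the entry of the mRNA channel, fell into 2 levels among the Δ*Gnas* libraries. It was at 990, 620, 1037 and 481 TPM in Δ*Gnas* DCs, against 1093, 838, 830, 938 and 963 TPM in WT DCs (log2 fold change -0.27, SE 0.22; edgeR adjusted p = 0.49). Its copy *Rps2-ps10* on chromosome 18 was at 2.34, 638, 1.15 and 513 TPM in Δ*Gnas* DCs and at 35.0, 0.989, 1.55, 2.44 and 1.11 TPM in WT DCs. Replicates 4 and 7, 1 labelled male and 1 female, thus held 50.8 and 51.7% of the joint level in copies, and replicates 3 and 6 held 0.386 and 0.420%.

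**Figure D3:**
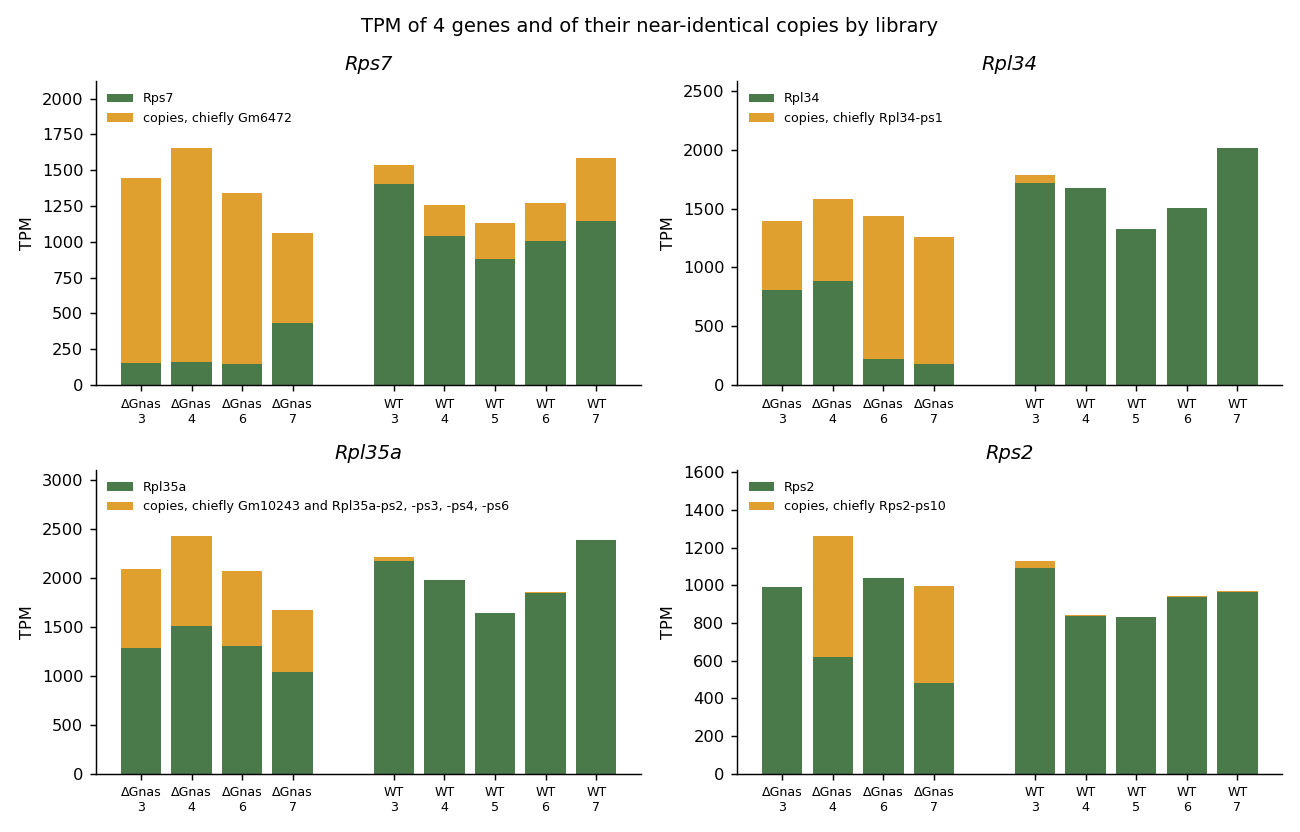
TPM of *Rps7*, *Rpl34*, *Rpl35a* and *Rps2* (green) and of their near-identical copies (orange), stacked, for each Δ*Gnas* library (left of each panel) and each WT library (right); the bar height is their sum. The orange part is large in all Δ*Gnas* libraries for the first 3 genes and in replicates 4 and 7 for *Rps2*, while the sums of the genotypes overlap in all 4 panels.

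Of the 465 copies, 71 passed the filter as rows of their own, and 7 of these (9.86%) were higher in Δ*Gnas* DCs and 0 were lower by the edgeR test, against 5.41% of all genes called higher and 4.15% called lower. The 7 were *Gm6472*, *Gm8730*, *Gm10243* and the 4 pseudogenes of *Rpl35a*, and *Gm10243* and those 4 had equal values, so they are not separate measurements. At an unadjusted p under 0.05, 11 copies were higher and 8 were lower. DESeq2 and the exact test each called 11 higher and 4 lower, and limma-voom 9 higher and 0 lower. These further counts have no share of all genes beside them, since 5.41% and 4.15% belong to the edgeR quasi-likelihood test.

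The 4 copies called lower by DESeq2 and the exact test were *Gm11518* of *Rpl27*, *Rps6-ps4*, *Rpl28-ps1* and *Rpl37rt*. *Gm11518* was at or under 0.000628 TPM in every Δ*Gnas* library, against 668, 0, 0.108, 64.5 and 271 TPM in WT DCs, and *Rpl28-ps1* was at 172, 233, 187 and 118 TPM in Δ*Gnas* DCs, against 700, 274, 231, 214 and 432 TPM in WT DCs. *Rps16-ps2*, a copy that none of these tools called, was at 28.98 TPM in Δ*Gnas* replicate 3 and near 0 in the other Δ*Gnas* libraries, against 310, 41.1, 6.44, 166 and 162 TPM in WT DCs. The genotypes overlapped for all of these copies, and WT replicate 3 was the highest library for each. All copies together held 2.04 ± 0.270% of the TPM in Δ*Gnas* DCs (SD, n = 4) and 2.04 ± 0.332% in WT DCs (SD, n = 5), so genes and copies together held 11.9 ± 1.48% in Δ*Gnas* DCs and 12.8 ± 1.76% in WT DCs. The share of the transcriptome given to ribosomal proteins therefore overlapped between genotypes with and without the copies.

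The comparison was repeated with every member summed with its copies. Of 84 families tested, 1 was lower in Δ*Gnas* DCs by the edgeR test, against 4.2% of the 11792 genes of that fit called lower, and 0 were higher, with 2 families lower and 0 higher at an unadjusted p under 0.05. The median log2 fold change of the families was -0.13, and 66 of the 84 were negative. The sums ranged from -0.55 for *Rpl37* (SE 0.22; edgeR adjusted p = 0.16), whose copy *Rpl37rt* was at 484 to 697 TPM in Δ*Gnas* DCs and 669 to 1557 TPM in WT DCs, to 0.37 for *Rpl3*. The family called was that of *Rps27l*, which has no near-identical copy.

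**Figure D4:**
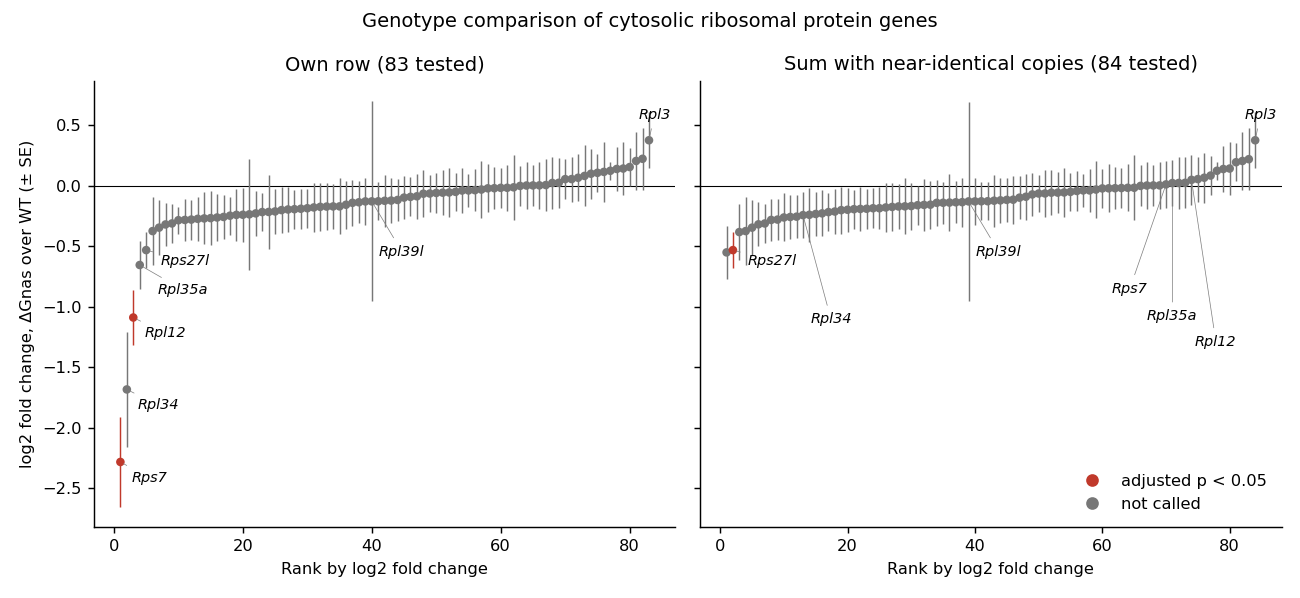
Log2 fold change (Δ*Gnas* over WT, ± SE of the edgeR fit) against rank, for the 83 tested members by their own rows (left) and for the 84 sums with near-identical copies (right); red marks an adjusted p under 0.05. On the left *Rps7*, *Rpl34* and *Rpl12* lie at -1.09 or below, and on the right these genes and *Rpl35a* lie between -0.24 and 0.05 and *Rps27l* is the one called.

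*Rps27l* encodes a paralog of the small subunit protein eS27 and is known in human cells as a target of p53. It was at 466, 356, 373 and 353 TPM in Δ*Gnas* DCs, against 688, 500, 614, 426 and 566 TPM in WT DCs. In TPM, Δ*Gnas* replicate 3 overlapped with WT replicate 6; in CPM after TMM normalization the values were 430, 376, 373 and 368 in Δ*Gnas* DCs, against 570, 504, 605, 430 and 688 in WT DCs, and Δ*Gnas* replicate 3 met WT replicate 6 without crossing it.

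The log2 fold change of *Rps27l* was -0.53 (SE 0.15), with an edgeR adjusted p of 0.051 by the gene rows and 0.0496 with copies summed, on either side of the threshold with the same fold change. Of 24 settings 7 called it lower, among them DESeq2 (adjusted p = 0.0045), limma-voom (0.049), and the fits that left out Δ*Gnas* replicate 3 (0.047) or WT replicate 6 (0.030), and the range over all settings was 0.0045 to 0.15. The fold change was -0.62 to -0.46 throughout.

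The other paralogs were not called. *Rpl22l1*, which pairs with *Rpl22*, an RNA-binding protein needed in T cell development, was at 177 to 312 TPM in Δ*Gnas* DCs and 133 to 242 TPM in WT DCs. Its level as a percentage of that of *Rpl22* was 19.7, 32.5, 29.95 and 30.2% in Δ*Gnas* DCs, against 14.2, 20.97, 15.8, 27.1 and 22.2% in WT DCs; the genotypes overlapped. The log2 fold change was 0.22 (SE 0.26) for *Rpl22l1* and -0.28 (SE 0.18) for *Rpl22*.

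*Rpl36al*, the autosomal paralog of the X-linked *Rpl36a*, was at 59.2 ± 2.61% of *Rpl36a* in Δ*Gnas* DCs (SD, n = 4) and 55.6 ± 3.93% in WT DCs (SD, n = 5). *Rpl7l1*, a paralog of *Rpl7*, was at 2.91 ± 0.412% of *Rpl7* in Δ*Gnas* DCs and 2.33 ± 0.375% in WT DCs, and its log2 fold change was 0.12 (SE 0.07). These ratios also overlapped between genotypes. *Rpl39l*, *Rpl3l* and *Rps4l* stayed under 1% of *Rpl39*, *Rpl3* and the X-linked *Rps4x*, and their log2 fold changes were -0.13 (SE 0.83), 0.20 (SE 0.24) and -0.38 (SE 0.28). The canonical partners differed by -0.22 (SE 0.16) for *Rpl7*, 0.37 (SE 0.23) for *Rpl3*, -0.02 (SE 0.17) for *Rpl36a*, -0.01 (SE 0.27) for *Rpl39* and 0.0016 (SE 0.17) for *Rps4x*.

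**Figure D5:**
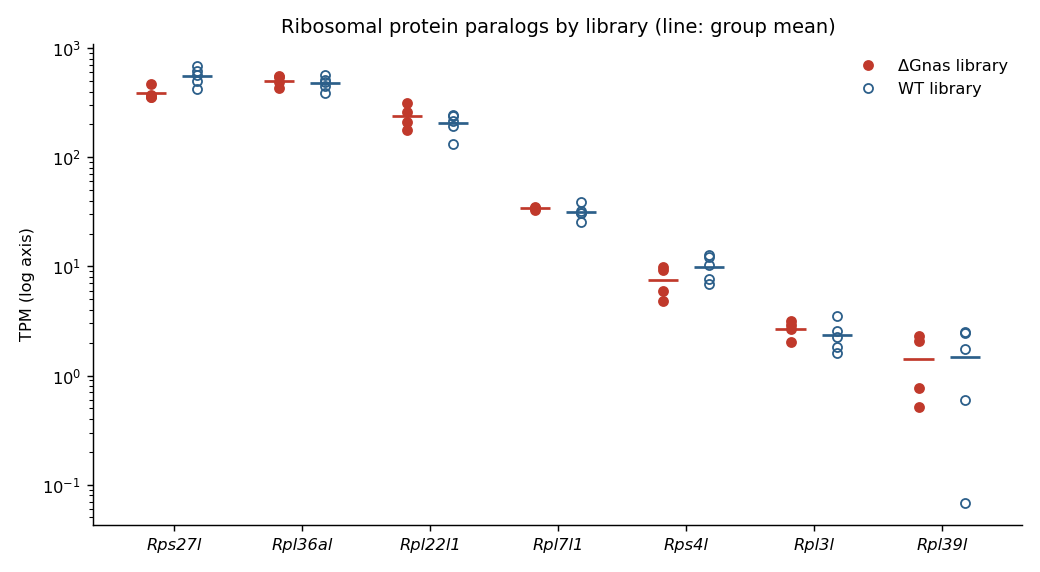
TPM on a log axis of the 7 tested paralogs in each library, with Δ*Gnas* libraries (filled) left of WT libraries (open) and a line at each group mean. *Rps27l* is the paralog with the clearest offset, at 353 to 466 TPM in Δ*Gnas* DCs and 426 to 688 TPM in WT DCs, and *Rpl39l* spreads most between libraries.

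The members' own rows also differed in how steady they were within a genotype. As the mean of the SDs within the genotypes, the spread of log2 CPM had a median of 0.27 over the members and 0.23 over all genes tested. The steadiest were *Rpl7l1* (0.05), *Rpl5* (0.15) and *Rps3* (0.18), which guards the mRNA entry channel and also acts in DNA repair. The least steady were *Rpl39l* (0.95), at 0.0678 to 2.51 TPM, *Rpl34* (0.76) and *Rps12* (0.74). These spreads also depend on how reads were shared with copies, which held 98.7% of the joint level of *Rpl5*. The sum of *Rpl34* and its copies was at 1261 to 1581 TPM in Δ*Gnas* DCs and 1329 to 2021 TPM in WT DCs. How far the sharing makes up these spreads was not tested.

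*Rps12*, a small subunit protein, was at 497, 359, 535 and 620 TPM in Δ*Gnas* DCs, against 1285, 482, 684, 125 and 515 TPM in WT DCs, so its WT libraries spanned more than all Δ*Gnas* libraries. Summed with its copies, chiefly *Rps12-ps3*, and with *Rps12l1*, it had a log2 fold change of 0.07 (SE 0.21; edgeR adjusted p = 0.89), against -0.24 (SE 0.46; adjusted p = 0.81) for its own row; over all settings the adjusted p was 0.28 to 0.99. *Rps12l1* itself was at 214 TPM in WT replicate 3 and was listed at 0 TPM in the other 8 libraries. WT replicate 3, the library low in mitochondrial transcripts, was also the one in which the copies *Gm8430* of *Rps27a* (1905 TPM) and *Rps6-ps4* of *Rps6* (491 TPM) were highest; their highest values elsewhere were 27.7 and 87.2 TPM.

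The 88 members found in the annotation lie on 19 chromosomes, 4 of them on the X chromosome. Their transcripts were short, with a median length of 641 bases, against 1286 bases over the tested genes. RefSeq promoter windows were at hand for 64 of the 89 members (71.9%), under the 80% set as the least for a comparison of promoter motifs, so that comparison is void.

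Other components of protein synthesis were read from lists of known genes. Of the ribosomal proteins outside the symbol rule, *Fau*, whose product is the small subunit protein eS30 fused to a ubiquitin-like domain, had a log2 fold change of -0.08 (SE 0.28) and *Gnb2l1*, the signalling scaffold RACK1 of the small subunit, -0.0039 (SE 0.18). Neither passed the edgeR test, also at an unadjusted p under 0.05 or by DESeq2, the exact test or limma-voom. Their signs changed under other scalings and without single libraries, within -0.26 to 0.18.

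Of 77 genes for the mitochondrial ribosome, which is built from a separate set of proteins, 0 were called higher and 0 lower by edgeR, DESeq2, the exact test or limma-voom, with 0 higher and 4 lower at an unadjusted p under 0.05, and their median log2 fold change was 0.0019. Of 19 translation factors and other mRNAs that begin with a pyrimidine tract, 0 were called in either direction by edgeR, with 1 higher and 2 lower at an unadjusted p under 0.05; DESeq2 called 1 lower and the exact test and limma-voom 0. Their median was -0.09, close to that of the ribosomal protein genes. The summed level of this list was 13025 to 16802 TPM in Δ*Gnas* DCs and 13323 to 17262 TPM in WT DCs.

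Of 67 genes for ribosome biogenesis and RNA polymerase I, 2 were higher, 1 was lower and the median log2 fold change was 0.03. Among all genes tested, 5.41% were called higher and 4.15% lower. At an unadjusted p under 0.05, 5 of the 67 were higher and 5 lower. DESeq2 called 3 higher and 3 lower, and the exact test and limma-voom each 2 higher and 1 lower. *Dkc1*, the pseudouridine synthase of box H/ACA particles, was at 9.90, 9.61, 10.3 and 9.42 TPM in Δ*Gnas* DCs, against 7.76, 5.09, 6.06, 6.62 and 4.04 TPM in WT DCs (log2 fold change 0.76, SE 0.13; edgeR adjusted p = 0.0068). *Polr1a*, the largest subunit of RNA polymerase I, was at 4.38, 5.26, 4.84 and 4.80 TPM in Δ*Gnas* DCs, against 3.30, 2.89, 2.84, 3.10 and 1.99 TPM in WT DCs (0.80, SE 0.15; adjusted p = 0.012). Both rose without overlap between genotypes.

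*Ddx18*, a nucleolar helicase of large subunit assembly, fell. It was at 23.6, 20.9, 25.0 and 22.5 TPM in Δ*Gnas* DCs, against 44.7, 35.4, 35.3, 31.7 and 32.2 TPM in WT DCs (log2 fold change -0.63, SE 0.09; edgeR adjusted p = 0.0034). All 3 biogenesis genes kept their calls in every setting that tested them.

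Of 21 genes of mTORC1 and translational control, 2 were lower and 0 higher by edgeR, against 4.15% of all genes called lower and 5.41% called higher. DESeq2, the exact test and limma-voom also called 0 higher, with 2 higher at an unadjusted p under 0.05. The median log2 fold change of the list was -0.0045, and its summed level was 1252 to 1370 TPM in Δ*Gnas* DCs and 956 to 1299 TPM in WT DCs. *Mtor*, the kinase itself, was at 13.1, 9.98, 12.4 and 8.48 TPM in Δ*Gnas* DCs, against 20.03, 16.1, 18.5, 14.9 and 12.2 TPM in WT DCs (log2 fold change -0.56, SE 0.12; edgeR adjusted p = 0.022). *Rptor*, the subunit that recruits substrates to mTORC1, was at 15.4, 7.70, 11.3 and 8.99 TPM in Δ*Gnas* DCs, against 27.9, 20.3, 19.9, 15.003 and 10.6 TPM in WT DCs (-0.76, SE 0.21; adjusted p = 0.048). The genotypes overlapped in TPM for both.

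Either call was lost without single libraries. The adjusted p of *Mtor* was 0.073 with Δ*Gnas* replicate 4 left out, 0.068 with Δ*Gnas* replicate 7 left out and 0.055 with WT replicate 4 left out. That of *Rptor* was 0.15, 0.10 and 0.16 with Δ*Gnas* replicates 4, 6 and 7 left out in turn, and 0.095, 0.12, 0.090 and 0.057 with WT replicates 3, 4, 5 and 6 left out in turn. Over all settings it was 0.0014 to 0.11 for *Mtor* and 0.0085 to 0.16 for *Rptor*.

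The last list held genes of the cell cycle. By edgeR, 19 of its 24 members were higher in Δ*Gnas* DCs and 0 were lower, against 5.41% of all genes called higher and 4.15% called lower. At an unadjusted p under 0.05 or by the other tools, 0 were lower, and the median log2 fold change was 0.82. Like the others, this list was chosen with earlier results of these data known. *Ccna2*, the cyclin of S phase and mitotic entry, was at 14.1 to 22.5 TPM in Δ*Gnas* DCs and 4.97 to 7.92 TPM in WT DCs, and *Tpx2*, *Rrm1* and *Mcm5* likewise did not overlap. WT replicate 7, in which the ribosomal protein genes were highest in CPM after TMM normalization, had the lowest TPM of each of these 4 cell cycle genes. In their share of all TPM, the ribosomal protein genes were at 12.3% in both WT replicate 3 and WT replicate 7. Whether the ribosomal protein genes differ from this list beyond chance was not tested.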

How the data were processed

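The authors sequenced stranded mRNA libraries, trimmed reads with BBDuk, assigned them to Ensembl transcripts (GRCm38) with Kallisto and summed transcripts to genes with tximport; the submitters' processing notes also name FastQC and edgeR. The authors' table holds TPM and, beside it, estimated counts. Within a library the 2 deposited units are proportional, so the estimated counts carry no gene length. Rows that name no gene (0.0843 to 0.121% of the counts) were left out. The estimated counts deposited were rounded and tested with edgeR 4.0.16 (R 4.3.3) as in the report; the tool was also tested on simulated data. Alternatives used DESeq2 1.42.0 and limma 3.58.1. Copies were found with BLAST 2.17.0. The study calls the libraries biological replicates; the labels do not tie them to mice, so p-values measure the spread between libraries, which may be technical in part.

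The members and lists were chosen with earlier results of these data known. Named were called members, the 6 highest and 6 lowest tested by TPM, paralog pairs, the 3 most and 3 least variable, members with few reads, and up to 4 called genes of each list, and the marker lists were read as counts. *Rpl34*, *Rpl35a*, *Rplp0*, *Rplp2*, *Rps2*, *Rpl37*, *Rpl11* and all copies were named after their values were seen. Summaries used Python 3.11.15 and pandas 2.3.3. Protein sequences were not used here, and some items are not reported here.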

Additional observations from a re-analysis of the deposited data

Results flagged for a closer look

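Among 82 groups of 4 or 5 libraries, 9 held a library far from the others by Dixon's criterion, and chance gives about 1 in 20 groups. Of these 9, 5 concern WT replicate 3, which had the fewest mitochondrial transcripts: *Rpl11* was at 1600 TPM there (880 to 1018 TPM in the other WT libraries), *Rpl12* at 91.6 TPM (38.4 to 53.6 TPM), *Rps3* at 1198 TPM (764 to 809 TPM), *Rpl34-ps1* at 69.5 TPM (0 to 1.11 TPM) and *Gm10243* at 9.17 TPM (0.164 to 0.442 TPM). WT replicate 7 had 5396 TPM of *Rps29*, against 3883 to 4068 TPM in the other WT libraries. Δ*Gnas* replicate 7 had 430 TPM of *Rps7*, against 144 to 162 TPM in the other Δ*Gnas* libraries, and 13.3 TPM of *Rpl5*, against 16.6 to 17.01 TPM. Δ*Gnas* replicate 4 had 2649 TPM of *Rpl41*, against 2165 to 2234 TPM in the others of its genotype.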

How the results depend on the processing

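Over 24 settings, 0 members were called higher in each. The number called lower was 2 in edgeR's quasi-likelihood test, 5 by DESeq2 and by the edgeR exact test, 4 by limma-voom, by limma on log2(TPM + 1) or log2(TPM + 0.1) and with counts rescaled by length, 1 with near-identical copies added, and 1 to 4 with 1 library left out. One paralog, *Rps27l*, was called by DESeq2, the exact test, limma-voom, the counts rescaled by length and the copies added, making 1 paralog called in each, against 0 in edgeR's quasi-likelihood test and 0 to 1 with 1 library left out. With the copies added, the log2 fold changes of *Rps7* and *Rpl12* turned to 0.010 and 0.048. The median of the members was -0.19 to 0.0071 with 1 library left out, and its sign turned only without WT replicate 7 (0.0071). Of all genes 1134 were called, against 1769 by DESeq2, 740 with total counts only, and 519 to 1586 with 1 library left out (580, 611 and 519 without Δ*Gnas* replicates 4, 6 and 7, and 655 without WT replicate 4). The difference in the share of TPM was -1.41 to -0.427 percentage points with 1 library left out and below 0 in the other 4 settings. For genes of the related lists called, the count was 20 to 33 with 1 library left out and within 1.5 times the main count in all settings. Among single genes the text names, 18 changed sign in at least 1 setting without being called there or in the main comparison.

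With the replicate block, 2 members were called lower, the median was -0.15 and 1188 genes were called, and no call of a member changed. The labels do not say that a number marks a shared litter or day, and the correlation of deviations for equal numbers was 0.29, -0.04, 0.25 and 0.16 for replicates 3, 4, 6 and 7. The copies and the length rescaling were chosen as settings after seeing the data. Estimated counts rest on how reads were shared among near-identical transcripts and no precision for that sharing was used here. With 4 and 5 libraries, small changes can be missed.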
